A study of Mus musculus with 931 samples.

Results

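The 57 cells described here were single pancreatic β cells of mice at stage P15, in the suckling period before weaning. They came from Ins1-RFP mice of mixed C57BL/6 and C3H background, in which a red fluorescent protein tied to the insulin gene Ins1 marks β cells. A cell was a member when its column carried the P15 prefix and its label read Ins1-RFP+ with no second hormone. This gave 57 of 538 unselected β cells of all stages, and of 917 cells with a column in the count table. A further 2 P15 cells labelled with a second hormone were not members. Because the reporter is driven by an insulin gene, the insulin level of these cells checks the label and is not a result.

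The study profiled β and α cells from E17.5 to P60 with Smart-seq2, which reads whole transcripts of single cells and carries no molecular identifiers, so intervals given for counts of cells or reads cover counting error only. The 57 cells came in 3 batches: batch 1 (20 cells) and batch 2 (27 cells) were picked by hand, and batch 3 (10 cells) was sorted by fluorescence-activated cell sorting (FACS). The labels name a batch for each cell but no animal, so the batch was the replicate and p-values measure the spread between batches, which may be technical. The β cells set beside them, 65 at P9, 71 at P18 (3 batches each) and 129 at P60 (5 batches), were of the same strain and label, with no treatment named. The 45 P15 α cells, in 2 batches, came from Gcg-Cre; Rosa-RFP mice of mixed C57BL/6, CBA/J and C3H background. A P15 β cell held 760481 to 1502596 gene reads and 6792 to 9037 genes with a read (median 7717), and spike-in RNAs took 1.38% to 3.81% of its reads. No doublet caller was run on these individually isolated cells. Batch 3 stood apart in Yam1, described with the levels below.

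β cells make insulin, fold its precursor in the endoplasmic reticulum (ER), cleave it in dense-core granules and release it when glucose metabolism closes potassium channels and lets calcium enter. Ucn3, a peptide released with insulin, marks maturing mouse β cells, and the hormone Pyy and the small membrane protein neuronatin (Nnat) are known from immature endocrine cells. Rodent β cells also divide after birth, at a rate that declines towards adulthood. A cell under folding load raises chaperones such as Hspa5 (BiP), whose promoter carries ER stress response elements (ERSE).

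The sequences upstream of 5 genes are shown because the results turn on them: Hspa5 and its partners Creld2 and Pdia3 varied from cell to cell, Cdk1 was read in few cells, and Ins1 defined the cells. Each run is the 250 bases before the RefSeq start on GRCm38.p6, 5′ to 3′ on the gene's strand, with capitals for the element searched.
Hspa5: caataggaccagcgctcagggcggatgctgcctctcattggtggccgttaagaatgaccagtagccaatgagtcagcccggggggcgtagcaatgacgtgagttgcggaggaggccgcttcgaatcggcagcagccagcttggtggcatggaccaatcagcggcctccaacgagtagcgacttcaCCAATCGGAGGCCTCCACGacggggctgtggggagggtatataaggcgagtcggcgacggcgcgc
Creld2: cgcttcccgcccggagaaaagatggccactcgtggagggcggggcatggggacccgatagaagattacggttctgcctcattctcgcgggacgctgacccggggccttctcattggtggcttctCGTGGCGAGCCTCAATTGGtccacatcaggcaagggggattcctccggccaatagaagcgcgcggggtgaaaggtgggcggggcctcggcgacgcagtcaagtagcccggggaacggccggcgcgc
Pdia3: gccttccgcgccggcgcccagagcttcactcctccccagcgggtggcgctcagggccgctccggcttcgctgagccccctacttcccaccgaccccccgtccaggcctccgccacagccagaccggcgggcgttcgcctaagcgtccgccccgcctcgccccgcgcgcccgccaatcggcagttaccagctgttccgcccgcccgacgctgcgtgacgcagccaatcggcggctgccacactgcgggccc
Cdk1: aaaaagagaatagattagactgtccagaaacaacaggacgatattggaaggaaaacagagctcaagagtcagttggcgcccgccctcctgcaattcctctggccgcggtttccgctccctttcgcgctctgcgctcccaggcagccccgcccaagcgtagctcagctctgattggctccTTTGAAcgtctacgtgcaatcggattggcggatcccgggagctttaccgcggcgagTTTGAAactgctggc
Ins1: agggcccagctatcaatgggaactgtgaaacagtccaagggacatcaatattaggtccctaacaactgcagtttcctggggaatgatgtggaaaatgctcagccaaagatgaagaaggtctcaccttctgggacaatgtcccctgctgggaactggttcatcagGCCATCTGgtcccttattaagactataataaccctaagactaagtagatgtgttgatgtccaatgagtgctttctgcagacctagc
They lie at chr2:34771840-34772089 (Hspa5, plus strand), chr15:88819396-88819645 (Creld2, plus), chr2:121413652-121413901 (Pdia3, plus), chr10:69352913-69353162 (Cdk1, minus) and chr19:52264047-52264296 (Ins1, plus).

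The capitals in Hspa5 (first base at -65 from the start) and Creld2 (-126, on the reverse strand) are the ERSE, searched as CCAAT and CCACG with any 9 bases between them, or on the reverse strand as CGTGG and ATTGG with any 9 between. In the window searched, 250 bases before to 50 after the start, it was found in 39 of 32851 RefSeq mouse promoters (0.119%). Of 19 genes with a promoter entry, from the ER list and Creld2, it was found in 7, namely Calr, Canx, Creld2, Dnajc3, Hsp90b1, Hspa5 and Pdia6, and Pdia3 had no match. Creld2 was not on the fixed ER list and was among the most variable genes of these cells. The capitals in Cdk1 are the cell cycle homology region, TTTGAA or TTCAAA, with matches starting at -71 and -15. That short motif was in 17.9% of all promoters and in 16 of 35 cell cycle genes. The capitals in Ins1 are the E-box GCCATCTG (reverse complement CAGATGGC) at -86, present in 1.32% of promoters, with another match at 40 after the start. A match describes letters in a window and does not show a bound site.

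The markers matched the label. Of 8 β cell markers, 7 had a read in all 57 cells, and Slc2a2, the glucose transporter GLUT2, in 56. The α cell factors Irx1 and Irx2, the hormone Ghrl of ε cells and 9 of 12 acinar enzymes had no read in any cell. The summed CPM (gene reads scaled to the same total in each cell) of the α cell list had batch medians of 25.9, 25.5 and 19.2, against 378529 in P15 α cells. The duct list summed to 36.7 to 456 CPM and to at least 100 CPM in 47 cells, mainly through Krt7, a keratin read in all 57 cells (median 157 CPM). The duct factor Sox9 had a read in 1 cell. The same duct list had a median of 167 CPM in the α cells.

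Insulin transcripts made up most of the measured mRNA. On the TPM scale (transcripts scaled to a fixed total, with a correction for gene length), Ins1 and Ins2 together took 58.4% to 77.0% of a cell (median 67.7%), and the 10 highest genes together 79.6%. Ins2 averaged 522404 ± 5480 TPM and Ins1 150547 ± 13446 (SD, n = 3 batches). Iapp, which encodes the granule peptide amylin, averaged 55625 ± 2448 TPM. In batches 1, 2 and 3, Ins2 averaged 526162, 524934 and 516117 TPM and Ins1 136821, 163694 and 151125 TPM. Ins2 was thus above Ins1 in each batch, and between cells Ins2 ranged only from 386358 to 608553 TPM (median 523011).

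**Figure D1:**
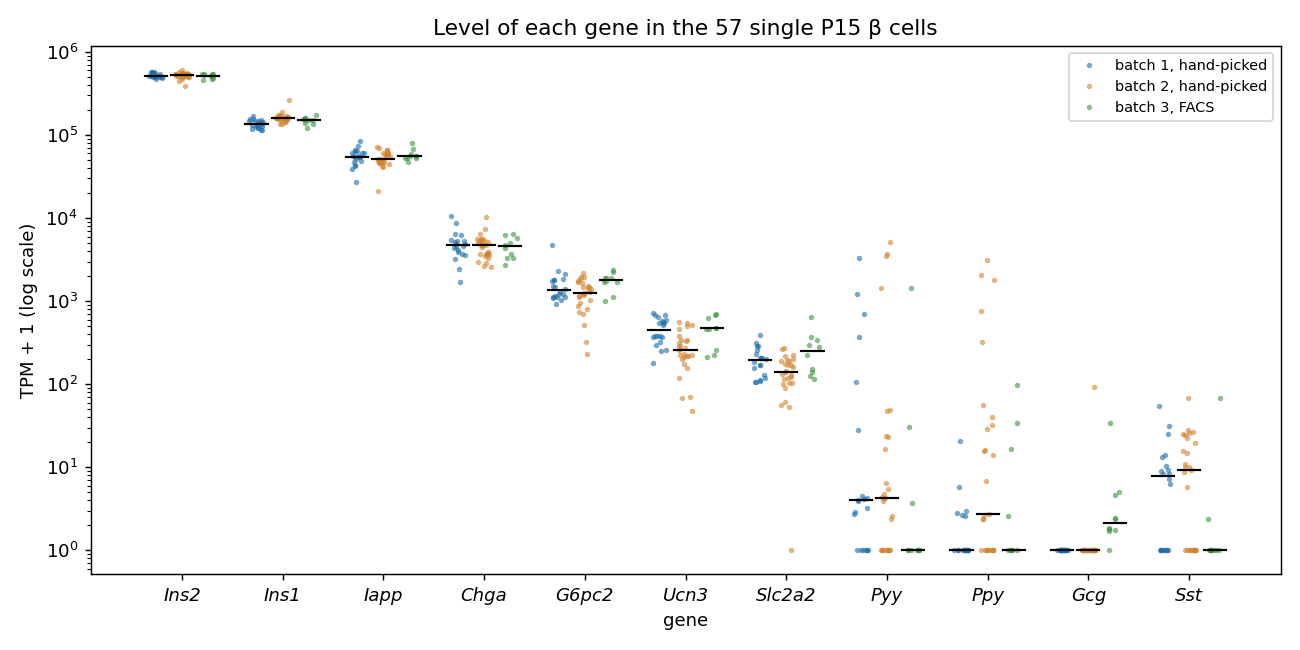
Level of each named gene in each of the 57 cells as TPM + 1 on a log axis; points are cells, colours the 3 batches, and black bars the batch medians. Ins2, Ins1, Iapp, Chga and G6pc2 were read in all 57 cells, with G6pc2 spread from 232 to 4747 TPM, while Pyy and Ppy were low in most cells and reached 5136 and 3134 TPM.

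Below insulin and amylin, the highest genes of the granule cargo and processing list were 2 granins, at ranks 8 and 10 in TPM. Chga, a granin that helps form granules, stood at 4721 ± 196 TPM, and Scg2, another granin, at 2051 ± 606 TPM. The proinsulin-trimming carboxypeptidase Cpe reached 940 ± 199 TPM, Pcsk1n, an inhibitor of the convertase PC1/3, 607 ± 7.76, and Slc30a8, the granule zinc transporter, 491 ± 112. The convertases themselves were lower, Pcsk2 at 364 ± 47.1 and Pcsk1 at 128 ± 45.7 TPM. Of the 20 genes of this list 18 were read in all 57 cells, the exceptions being Vgf (19 cells) and Syt7 (54 cells). Ucn3 stood at 399 ± 104 TPM, with batch means of 700, 428 and 656 CPM and a range over cells from 63.8 to 1073 CPM. Batch 2 was the lowest in Ucn3, and its cells overlapped those of the other batches.

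Genes for glucose sensing spanned a wide range of levels. G6pc2, the islet glucose-6-phosphatase, averaged 1533 ± 262 TPM. Slc2a2 averaged 203 ± 62.9 TPM, and Slc2a1, another glucose transporter, 4.85 ± 1.88 TPM in 32 cells. Of the potassium channel subunits, Abcc8 averaged 76.6 ± 11.0 TPM in all cells, and Kcnj11 6.16 ± 2.04 TPM in 40. The incretin receptor Glp1r averaged 106 ± 11.2 TPM and Gipr 26.3 ± 5.50. Each value is a level on the TPM scale, and no test was made between genes.

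Among 20 islet transcription factors, 8 were read in every cell. The highest was Mlxipl, the glucose-responsive factor ChREBP, at 126 ± 11.3 TPM, followed by Neurod1 at 84.0 ± 18.6. Pdx1 and Nkx6-1, which hold β cell identity, averaged 36.1 ± 5.40 and 45.6 ± 2.88 TPM. Mafa, an activator of insulin transcription, was read in 12 cells and never above 2.42 CPM. Of 21 genes that β cells normally keep silent, the disallowed genes, 6 had no read and none reached 10 TPM on average, with Oat the highest at 9.60 ± 8.42 TPM.

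Yam1, at rank 4 with 40508 ± 19612 TPM, differed most between batches among the 25 highest genes. Its batch means were 98495, 96595 and 31774 CPM, so the hand-picked batches were alike and the FACS batch lower. The row is a lincRNA on chromosome 17 (39846958 to 39848788, plus strand, GRCm38) that GENCODE names Gm42418 and that overlaps annotated ribosomal RNA on the other strand, so its reads cannot be assigned with certainty. Other genes also separated the FACS batch. H2-K1, an MHC class I heavy chain, averaged 182 and 194 CPM in the hand-picked batches and 28.0 CPM in the FACS batch, and Wdfy1 36.1 and 21.8 against 0.542. Snhg11, a host of small nucleolar RNAs, averaged 2.74 and 1.30 against 44.6 CPM, but a single FACS cell held 401 CPM, and it was read in 45%, 29.6% and 40% of the cells of batches 1 to 3. With 1 FACS batch at this stage, the sorting method and the batch cannot be told apart.

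Detection was broad but shallow for most genes. Of 18793 genes with a read in some cell, 1118 had a read in all 57, and 656 had at least 10 reads in all of them. Another 4769 were read in 3 or fewer cells. At 500000 reads per cell, a cell showed 6212 to 8348 genes (median 7133). A missing read at this depth does not show that a gene is silent.

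The 57 cells differed from each other more in some genes than technical noise of spike-ins would give. For each batch a curve was fitted through the squared coefficient of variation (CV, the SD over the mean between cells) of 34, 34 and 31 spike-in RNAs, and the excess of a gene is the log2 ratio of its squared CV to that curve at the same mean. Of 3535 genes with at least 20 CPM in each batch, 1028 (29.1%) lay above the curve in all 3 batches and 594 (16.8%) below it in all 3, with a median excess of 0.15 and a median CV of 0.726. The curve is a reference and not a lower limit, and excess is a description with no test. It is also an extrapolation for Ins1, Ins2, Iapp, Chga and Yam1, whose mean reads exceeded the highest spike-in (6153 to 8515 mean reads) in all batches, and for Scg2 in batch 3. These genes had a large excess but small CVs, as with Ins2 (0.093, 0.123 and 0.108 in batches 1 to 3) and Ins1 (0.119, 0.133 and 0.134).

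**Figure D2:**
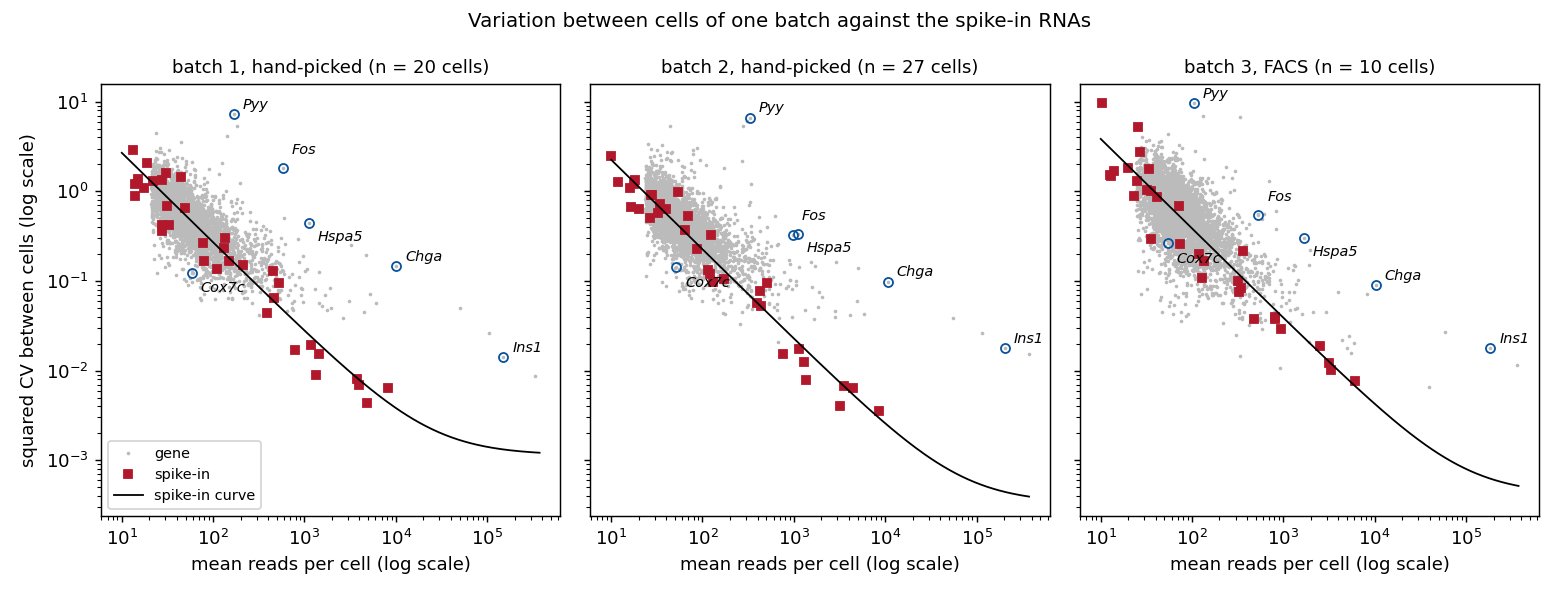
Squared CV between cells against mean reads per cell, both on log axes, for the 3535 genes (grey) and the spike-ins (red) in each batch, with the spike-in curve in black. Pyy, Fos, Hspa5 and Chga lie above the curve in all 3 panels, Cox7c lies below it, and Ins1 lies to the right of every spike-in.

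The 15 genes whose excess was highest in their lowest batch fell into a few kinds. Pyy led with an excess of 4.69 to 6.60, and Nnat followed among genes within the spike-in range with 4.54 to 6.37. Hspa5, the main ER chaperone, had an excess of 3.70 to 4.14 and CVs of 0.668, 0.581 and 0.550. Its level ran from 241 to 3776 CPM over the cells, with a median of 935. Creld2, Pdia4 and Pdia3, further proteins of ER folding, were also among the 15, Creld2 with CVs of 1.00, 1.06 and 1.18. G6pc2 varied with CVs of 0.500, 0.402 and 0.273 and cell levels from 412 to 8980 CPM, and Resp18, a granule protein, with 0.706, 0.726 and 0.751. Fos, an immediate early factor, had CVs of 1.34, 0.573 and 0.736, so batch 1 was the most uneven in it.

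At the other end, the named gene with the lowest excess was Zfp488, a zinc finger protein, at -3.73 to -2.76. Of the 10 genes named by the lowest excess, 5 belong to oxidative phosphorylation (Atp5l, Ndufs5, Cox7c, Cox5b and Ndufa12). Cox5b, a cytochrome oxidase subunit, had CVs of 0.287, 0.305 and 0.208 and ran from 30.7 to 151 CPM over all cells. Gapdh, the glycolytic enzyme often used as a reference gene, had CVs of 0.327, 0.313 and 0.363 and an excess of -1.82 to -1.41. Fau, a ribosomal fusion protein, Mrps33, a mitochondrial ribosomal protein, and Pdap1 were also among them. Of 69 oxidative phosphorylation genes, 42 lay below the curve in all batches and 7 above it, with a median excess of -0.68 against 0.15 over all 3535 genes. In glycolysis 4 of 10 lay below and 3 above, with a median of -0.18.

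Secretory lists lay on the other side. Of 19 granule genes at 20 CPM or more 17 lay above the curve in every batch and 0 below, with a median excess of 1.64, and of 18 ER folding genes 15 lay above and 0 below, with a median of 1.66. For all 3535 genes the share above was 29.1%. The lists differ in level as well: the median gene of the granule list stood at 392 TPM and of the ER list at 98.8 TPM, against 68.2 TPM for oxidative phosphorylation. It was 1.47 TPM for all 18793 genes read, a wider set than the 3535. TPM is corrected for gene length, whereas the excess was taken at mean reads, so these medians do not give the read level of the lists. The part of read level in the excess was not tested. Of 11 immediate early and heat shock genes 8 lay above, among them Dusp1 (0 to 1215 CPM over cells) and Ier2 (0 to 719 CPM), while the chaperone Hspa8 lay below with CVs of 0.357, 0.297 and 0.206. Islet transcription factors were closer to the whole, with 5 of 12 above and 1 below, as were exocytosis genes with 4 of 9 above. Of 21 genes that the literature ties to differences between β cells, 8 had 20 CPM or more, and all 8 lay above the curve. They included Th, tyrosine hydroxylase (0 to 1071 CPM, read in 47 cells), Gad1, glutamate decarboxylase (0 to 466 CPM, read in 40), and Cd81 (0 to 415 CPM, read in 48).

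Within the ER list most genes correlated with Hspa5. Spearman correlations between cells of a batch were computed for Hspa5 against 18 genes at 20 CPM or more, the others of the ER list and Creld2, with 20, 27 and 10 cells. Of these, 13 were above 0 in all 3 batches, and the median was 0.515, 0.596 and 0.291 in batches 1 to 3. Over all 3534 other genes at that level 23.7% were above 0 in all batches, and the medians were 0.082, 0.089 and 0.012. Creld2, which was not on the fixed ER list, had the highest lowest value of all genes (0.528, 0.672 and 0.685). The next were Ssr3, of the translocon, Srp9, of the signal recognition particle, and Cope, of the Golgi-to-ER coat, with lowest values of 0.479, 0.453 and 0.448. Dnajc3, a co-chaperone, gave 0.749, 0.684 and 0.321. Ero1l and Ero1lb, oxidases of the ER, were near or below 0, with Ero1l at -0.132, -0.257 and -0.091 and Ero1lb at 0.023, 0.0049 and 0.067. Ero1lb is counted among the 13. Hsp90b1, Canx and Atf6 fell below 0 in batch 3 (-0.2, -0.273 and -0.079), and Sel1l in batch 2 (-0.045). Ins2 ran the other way from Hspa5, with -0.492, -0.511 and -0.152. Cells of a batch share library preparation and their CPM share one total, of which insulin takes a large part, so these are descriptions with no test.

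**Figure D3:**
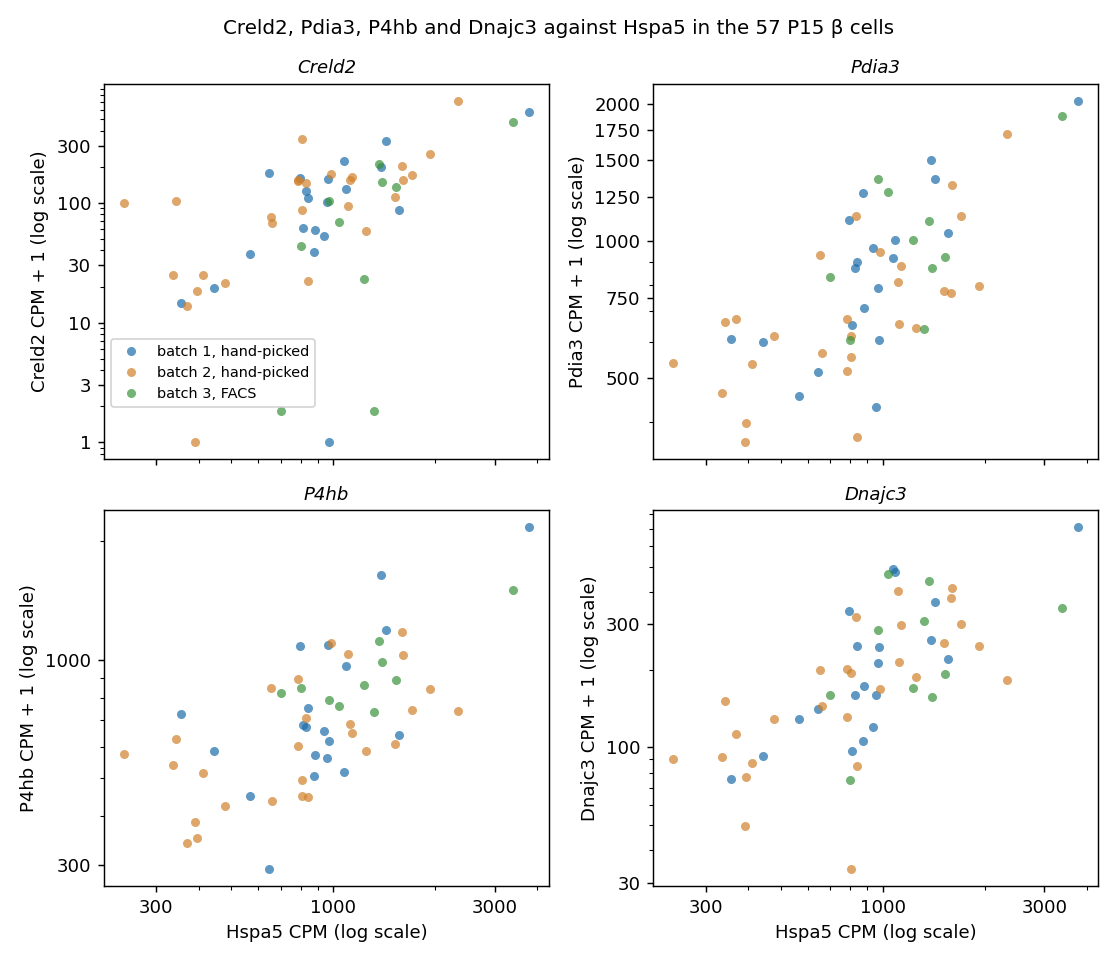
Creld2, Pdia3, P4hb and Dnajc3 against Hspa5 in each of the 57 cells, in CPM on log axes (1 added to the y values), coloured by batch. Cells with more Hspa5, up to 3776 CPM, tend to have more of the other genes, with Creld2 correlations of 0.528, 0.672 and 0.685 within batches 1 to 3.

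Other pairs were weaker or not shared by the batches. Fos and Egr1, both immediate early factors, correlated at 0.651, 0.709 and 0.552, while Fos and Junb gave 0.595, 0.564 and -0.115. Ins1 and Ins2 correlated at 0.353, 0.342 and 0.576. Ucn3 and Slc2a2 correlated at 0.729 in batch 2 only, with 0.0045 and -0.030 in batches 1 and 3. Ucn3 and Pyy gave -0.309, -0.565 and -0.470.

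Hormones of other islet cells were found in a minority of cells. Because α cells, which should lack insulin, held an Ins1 read in 36 of 45 cells at a median of 4.79 CPM, a cell was counted for a hormone only at 100 CPM or more. At that level 4 of 45 α cells (8.89%) counted for Ins1 and 5 (11.1%) for Ins2, at a median depth of 1111742 reads against 1180911 in the β cells. Pyy reached that level in 9 of 57 cells (15.8%, exact Clopper-Pearson 95% interval 7.48% to 27.9%), with 4, 4 and 1 cells in batches 1 to 3. Ppy, pancreatic polypeptide, reached it in 5 cells, all of batch 2, and 3 cells held both. Gcg reached it in 1 cell at 102 CPM, Npy in 2 cells, and Sst and Ghrl in 0 of 57, which allows a share of up to 6.27% by the exact interval. In batch 3 a low Gcg signal was read in 9 of 10 cells (median 1.15 CPM), against 0 of 20 in batch 1 and 1 of 27 in batch 2.

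Pyy and Ppy were found beside insulin in the same cells. The 3 with the most Pyy, all of batch 2, had 2682, 2067 and 1875 CPM of Pyy, beside 246133, 311388 and 278322 CPM of Ins2. The first of them also had the lowest Ucn3 of all 57 cells (63.8 CPM), no read of Slc2a2 and the lowest G6pc2 (412 CPM), and it was 1 of 4 cells with cell cycle transcripts. The third had 1508 CPM of Ppy and 98.7 CPM of Ucn3. The next cell, of batch 1, had 1841 CPM of Pyy, no read of Ppy and 382 CPM of Ucn3. A cell of batch 2 with 1051 CPM of Ppy and no read of Pyy had 751 CPM of Ucn3 and the most Nnat of all cells (3248 CPM). No cell with a hormone label of its own was among the members. The highest Pyy of the 57, 2682 CPM, lay below the median of the pooled P15 α cells (3770 CPM). It lay between the medians of α batches 1 and 2, at 6668 and 1483 CPM.

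Several other genes were also read in only part of the cells. Detection in 20% to 80% of the cells of every batch held for 4351 genes, without predicted and ribosomal protein genes. A missing read does not show that such a gene was silent. Among the 4351, Pyy and Ppy had the highest mean level in the cells with a read (332 and 157 CPM). Gad1 followed with 106 CPM in 40 cells, Gpx3, a secreted glutathione peroxidase, with 101 CPM in 29 cells, and Arhgap36 with 91.7 CPM in 36. Prom1, a membrane protein, was read in 31 cells at 73.3 CPM, and Angptl7, a secreted glycoprotein, in 31 at 68.4. Their batch means differed, as with Gpx3 at 25.6, 86.3 and 9.45 CPM and Sfrp5, a secreted Wnt modulator, at 86.1, 19.0 and 3.01 CPM. Nnat reached 100 CPM in 18 cells, 7, 10 and 1 in batches 1 to 3.

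Cell cycle transcripts were concentrated in 4 cells. Of 44 cell cycle genes, 38 to 43 stood at 10 CPM or more in these 4 cells, and at most 12 in any of the other 53. The 4 cells were 7.02% of 57 (exact 95% interval 1.95% to 17.0%), with 0, 3 and 1 in batches 1 to 3. Their summed level over the list was 5767, 6033, 10714 and 7335 CPM, against a median of 89.0 CPM and a highest value of 596 CPM in the other 53 cells. Each expressed genes of both DNA synthesis and mitosis. The cell with 10714 CPM held 1574 CPM of Top2a, which untangles replicated DNA, 774 CPM of Cdk1, the mitotic kinase, and 586 CPM of Ube2c, which drives exit from mitosis. The cell of batch 3 had the most of the replication clamp Pcna (457 CPM) and of Mcm5, of the replicative helicase (280 CPM), among the 4. The first 2 cells of batch 2 had 504 and 608 CPM of Mki67, a marker of cycling cells.

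These 4 cells held 241118 to 298186 CPM of Ins2 and 5517 to 9985 CPM of Chga. Their G6pc2 was lower than the median of the 57 cells (2715 CPM), at 412, 594 and 1497 CPM in batch 2 and 1663 CPM in batch 3, and the first 2 of these were the lowest of all cells. Ucn3 stood at 63.8 to 387 CPM in the 4, each at or below its batch median, and Slc2a2 at 0 to 508 CPM. The 4 libraries had 1098215 to 1502596 reads, against a median of 1180911, and 8539 to 9037 genes read, and the part of depth in the count of genes was not tested. For 29 of the 44 genes over 80% of all reads at P15 came from these 4 cells (median 94.6%). For Pcna the share was 63.0% and it was read in 45 of the other 53 cells, whereas Top2a had 99.8% of its reads in the 4. Counted the same way, with at least 15 of the 44 genes, cycling cells numbered 6 of 65 at P9, 1 of 71 at P18 and 1 of 129 at P60, and 3 of 45 among P15 α cells. The exact intervals, 3.46% to 19.0% at P9, 0.0357% to 7.60% at P18 and 0.0196% to 4.24% at P60, overlap that of P15 in each case. They pool the cells of all batches and cover counting error only, so their overlap does not show equal shares. The difference in share between stages was not tested.

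**Figure D4:**
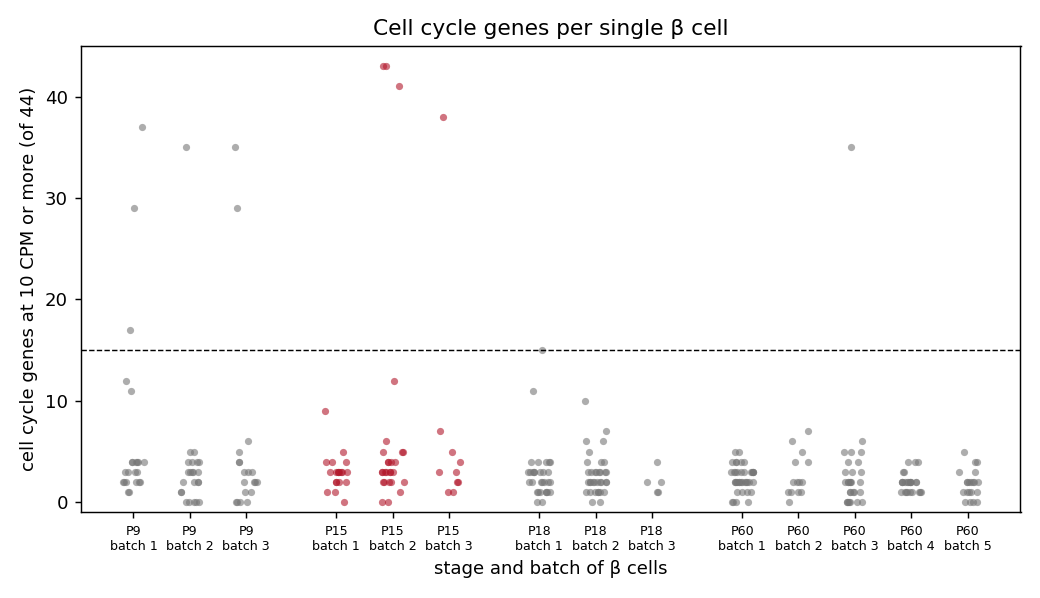
Number of 44 cell cycle genes at 10 CPM or more in each β cell, by stage and batch, with the dashed line at 15 genes. At P15, 4 cells lie at 38 to 43 genes and the other 53 at 12 or fewer, the highest P18 cell lies on the line at 15, and a single P60 cell lies at 35.

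Similarity between cells at P15 was close to that at the other stages. The median Spearman correlation between pairs of cells of a batch, at 500000 reads per cell, was 0.430, 0.460 and 0.394 in batches 1 to 3, or 0.428 ± 0.033 (SD, n = 3). It was 0.427 ± 0.011 at P9 (n = 3), 0.402 ± 0.040 at P18 (n = 3) and 0.426 ± 0.014 at P60 (n = 5). An exact two-sided permutation test gave p = 1, 0.5 and 0.929 (adjusted 1 in each of the 3), where 3 against 3 batches allow no p under 0.1. The FACS batch had the lowest value at P15 and also the fewest cells, as did the lowest P18 batch with 5 cells.

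The comparison of P15 with P9 asked what changes between the first postnatal weeks, and no gene passed the test. Of 16107 genes tested with edgeR, 0 were higher at P15 (0%) and 0 lower (0%), with 373 and 547 at an unadjusted p under 0.05, and DESeq2 called 23 and 53. The main β cell genes had nearby levels. After TMM scaling, which sets the batches on one scale, Ins2 stood at 388160, 411030 and 294880 CPM in the P15 batches and at 332710, 363120 and 237550 at P9, and Ucn3 at 853, 550 and 656 against 446, 742 and 447. The batches overlapped in both genes. Pyy was lower in value, with 213, 389 and 87.1 CPM against 1152, 195 and 881 at P9 (log2 difference -1.67, SE 1.32, edgeR adjusted p = 0.986). None of the 14 gene lists held a called gene. Their medians ran from -1.42 for the 16 immature endocrine genes to 0.29 for the 18 MHC class I and interferon genes, against -0.02 for all genes tested. Over the alternatives these 2 medians ran from -2.17 to -0.20 and from 0.022 to 0.53, with the first at -2.17 without P15 batch 2, -0.79 without P9 batch 1 and -0.74 without P9 batch 3, and the second at 0.53 without P15 batch 1 and 0.45 without P9 batch 1. Without P15 batch 3, the FACS batch, 2 genes were called higher.

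Between P15 and P18 a single gene was called. Wdr96, named Cfap43 in GENCODE and known from cilia, was higher at P15 (1 of 16107 genes, 0.00621%; 0 lower, 0%), with 4.57, 7.49 and 4.81 CPM in the P15 batches and 1 read in all 71 P18 cells (edgeR adjusted p = 0.0492). It was chosen after its values were seen, and the ratio of summed reads, 325 at P15 from 8 cells against 1, was 431 with a counting interval of 76.8 to 17068. Wdr96 was no longer called without P15 batch 2 or 3 or without any 1 of the P18 batches, and it overlaps other genes on both strands. The count became 2 higher without P15 batch 1 and 1 lower without P18 batch 2, and 0 higher without P15 batch 2 or any 1 P18 batch. At an unadjusted p under 0.05 the numbers were 662 and 599, and DESeq2 called 97 and 54. In the cell cycle list 44 of 44 genes were above 0, with a median log2 difference of 4.25 against 0.04 over all genes, and 0 were called. The median was 9.92 on hand-picked batches and 0.27 with equal weight per cell, on the log2(TPM + 1) scale, and it was still 4.25 with the 6 genes that had no read at P18 set to a floor of 3 reads over the group. Mki67, for example, stood at 5.96, 82.0 and 52.0 CPM at P15 and at 1.21, 0.192 and 0 at P18 (adjusted p = 0.508). Over 80% of the P15 reads of most of these genes came from the 4 cells described above. The immature endocrine list had a median of 1.33 with 0 of 16 called, which became 0.34 on hand-picked batches, 0.77 without P15 batch 2 and 0.047 with equal weight per cell. Among the main β genes, Ucn3 differed by -0.03 (SE 0.31) and Slc2a2 by -0.17 (SE 0.18), with overlapping batches.

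P15 and P60 differed in 49 genes. Of 16107 tested with edgeR, 36 (0.224%) were higher at P15 and 13 (0.0807%) lower, with 914 and 802 at an unadjusted p under 0.05, and DESeq2 called 183 and 148. Genes higher at P15 included Nnat, the DNA methyltransferase Dnmt3a and the glucose-responsive factor Mlxipl, and genes lower at P15 included the stress protein Nupr1, the amino acid transporter Slc7a5 and the glycolytic enzymes Eno2 and Aldoa. The largest difference among well-expressed genes higher at P15 was that of Nnat, on chromosome 2 (157560078 to 157562522, plus strand, GRCm38). Its batches held 225, 327 and 104 CPM at P15 and 35.9, 49.2, 18.2, 8.95 and 38.6 at P60, or 219 ± 112 (SD, n = 3) against 30.2 ± 16.3 (SD, n = 5). The groups did not overlap, which the naming rule required (log2 difference 2.75, SE 0.49, adjusted p = 0.0139). Cells within a batch were uneven in Nnat. Before TMM scaling, the median over cells was 21.3, 78.2 and 0.384 CPM in P15 batches 1 to 3. In batch 3 only 1 of 10 cells reached 100 CPM, at 895 CPM. Over all cells the median was 23.7 CPM at P15 and 1.00 CPM at P60. Nnat lies within Blcap on the other strand, and the counting strand is not given in the sources used here, so reads of the pair may mix.

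Dnmt3a, a de novo DNA methyltransferase on chromosome 12 (3806007 to 3914443, plus strand), stood at 302, 292 and 222 CPM at P15 and at 62.1 to 124 CPM at P60 (log2 difference 1.46, SE 0.18, adjusted p = 0.000357). It was read in all 53 cells without high cell cycle counts. Nrep, a regulator of neuronal regeneration, stood at 96.8, 79.7 and 139 CPM against 19.1 to 63.8 (log2 1.80, adjusted p = 0.0102). Igsf1, a membrane immunoglobulin protein, stood at 48.7, 82.4 and 55.9 against 10.0 to 34.5 (log2 1.67, adjusted p = 0.0125). Mpp3, a scaffold protein, stood at 53.1, 36.0 and 82.4 against 16.4 to 27.5 (log2 1.44, adjusted p = 0.015). Among transcription factors, only Mlxipl of 20 was called, at 549 ± 136 (SD, n = 3) against 287 ± 30.3 CPM (SD, n = 5; log2 0.95, adjusted p = 0.00697). In these genes the lowest P15 batch lay above the highest P60 batch, which the naming rule required of all but Mlxipl. The share of all genes tested whose batches did not overlap is not given here.

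Lower at P15 were genes that P60 cells expressed. Nupr1, a stress-induced nuclear protein, had no read in any of the 57 cells and 3.70 to 77.1 CPM in the P60 batches (adjusted p = 0.00466). Against a floor of 3 reads over the P15 group it was at least 651-fold lower at P15, and 48 of 129 P60 cells had a read. Hspb8, a small heat shock protein, stood at 4.05, 2.23 and 9.47 CPM against 20.5 to 77.8 (log2 -3.15, adjusted p = 0.015). Slc7a5, an amino acid transporter, stood at 15.5, 13.3 and 9.71 against 36.4 to 74.7 (log2 -2.09, adjusted p = 0.0463). Of 15 glycolysis genes tested 2 were lower, Eno2, an enolase, at 19.5 ± 6.90 against 63.0 ± 13.5 CPM (log2 -1.70, adjusted p = 0.015), and Aldoa, an aldolase, at 260 ± 26.3 against 416 ± 33.8 (log2 -0.67, adjusted p = 0.0486; SD, n = 3 and 5). Of 21 ER genes 1 was lower, Ern1, the stress sensor IRE1α, at 12.9 ± 2.97 against 35.6 ± 8.33 (log2 -1.47, adjusted p = 0.0463; SD, n = 3 and 5).

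Further called genes are named here after their values were seen. Slc38a5, an amino acid transporter that is on the α cell marker list, had a log2 difference of 4.39 (17.8 ± 19.6 against 0.847 ± 0.647 CPM, adjusted p = 0.0112). Its P15 batches were uneven. Outside the 4 cells with cell cycle transcripts, Slc38a5 was read in 15 of the other 53 cells, at up to 331 CPM. Also higher at P15 were Pak3, a neuronal kinase (188 ± 20.8 against 81.6 ± 11.5 CPM, adjusted p = 0.00215), the redox protein Txn1 (102 ± 10.3 against 52.4 ± 5.38, adjusted p = 0.00698) and the nucleosome protein Hmgn1 (134 ± 13.9 against 70.0 ± 10.2, adjusted p = 0.00698). Ifi30, a lysosomal thiol reductase, stood at 98.5 ± 10.7 against 37.1 ± 11.5 CPM (adjusted p = 0.0125). Lower at P15 were Ctsd, a lysosomal protease (179 ± 12.0 against 288 ± 15.2 CPM, adjusted p = 0.015), Scd2, a fatty acid desaturase (44.8 ± 5.41 against 113 ± 19.9, adjusted p = 0.0224), and Il1r1, the interleukin-1 receptor (248 ± 42.6 against 463 ± 33.6, adjusted p = 0.0297). The values are mean ± SD over 3 P15 and 5 P60 batches. In each of these genes the batches of the groups did not overlap. The share of all genes tested without overlap is not given here, so the lack of overlap adds no support to these calls. Whether these calls held with single batches left out is not given here either.

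**Figure D5:**
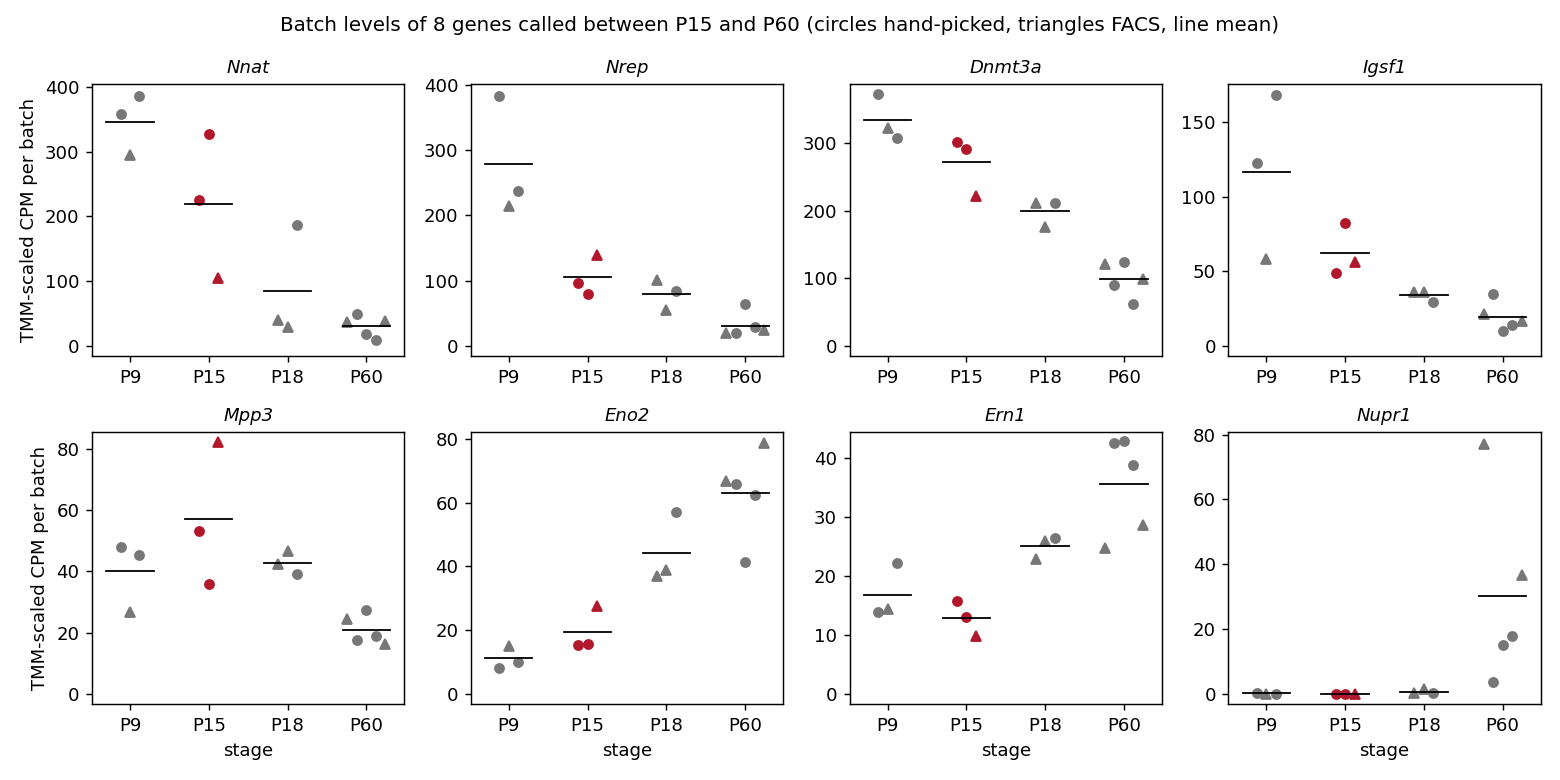
TMM-scaled CPM of 8 genes in each batch of β cells at P9, P15, P18 and P60; circles are hand-picked batches, triangles FACS batches and lines the means, with P15 in red. For each gene every P15 batch lies on one side of every P60 batch, which the naming rule required, as with Dnmt3a at 222 to 302 against 62.1 to 124 CPM.

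Of 44 cell cycle genes, 2 were called higher at P15, Cenpe, a kinetochore motor, and Prc1, which bundles spindle microtubules, and the list median was 3.60 (0.31 with equal weight per cell) against -0.03 for all genes. Cenpe stood at 3.47, 16.5 and 12.2 CPM at P15 and at 0 to 1.10 at P60 (log2 5.48, SE 1.08, adjusted p = 0.0259). Batch 1, with none of the 4 cells described above, also lay above every P60 batch in Cenpe and in Prc1 (8.50 against 0.418 to 2.71 CPM). Few cells carried this for Cenpe, which was read in only 3 of the other 53 cells, at up to 121 CPM. Prc1 was read in 24 of them, at up to 84.7 CPM. The 4 cells held 66.6% of the P15 reads of Cenpe, 65.0% of Prc1, 84.6% of the chromatin protein Hmgb2, 99.8% of Ckap2l and 99.6% of Gtse1, all called higher at P15. By contrast they held 6.03% of the reads of Dnmt3a. Mki67 stood at 5.96, 82.0 and 52.0 against 0 to 7.44 CPM and missed the threshold (adjusted p = 0.0663), as did Pyy at 87.1 to 389 against 0.0523 to 20.7 CPM (adjusted p = 0.0682). Of 69 oxidative phosphorylation genes 63 were above 0 with a median of 0.31, and 0 were called, with 21 at an unadjusted p under 0.05. The granule list had a median of -0.19 with 0 of 20 called (-0.11 without P15 batch 3), and Ucn3 differed by 0.01 (SE 0.27).

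The number of genes called between P15 and P60 depended on single batches. It fell to 8 higher and 5 lower without P15 batch 2, to 21 higher without P15 batch 3, and to 7 lower without P15 batch 1. Without P60 batch 2 it was 15 and 5, without batch 4 19 and 6, without batch 5 18 and 7, and without P60 batch 3, 73 were higher. Of the 14 genes named by rule, Dnmt3a and Nupr1 stayed called without any single batch. Nnat and Mlxipl ended without P15 batch 2, Nrep without P15 batch 3, Hspb8 and Eno2 without P15 batch 1 or 2, and Igsf1 without P15 batch 2 or 3. Mpp3 ended without P15 batch 3 or P60 batch 2 or 5, and Aldoa, Ern1, Slc7a5, Cenpe and Prc1 without any of 5 or more batches. On hand-picked batches alone no gene was called (0 and 0).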

How the data were processed

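Single cells were read with Smart-seq2 and bulk β cells with RNA-seq. The authors deposited raw read counts per gene and cell, with 92 spike-in RNAs, and TPM values per cell. The tools listed, per the submitters' processing notes, are DESeq 1.20.0, TopHat2 2.1.0 and HTSeq 0.6.0. The notes name GRCm38 and mm10 as builds, and the counting strand is not given in the sources used here. The deposited table also gives each gene's length (unit "other"), and TPM recomputed from counts and lengths differed from the deposited TPM by at most 0.005 in the P15 cells. Of the P15 columns 0 were identical, 6 gene rows had no symbol, and 51 cell columns were not used.

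The members and gene lists were chosen with earlier results of these data known. CPM were reads scaled to a fixed total of gene reads in each cell (1e6). Counts of the cells of a batch were summed and tested with edgeR 4.0.16 (quasi-likelihood, TMM, filterByExpr, Benjamini-Hochberg over 16107 genes, called at an adjusted p under 0.05), in a fit of 25 β cell batches of 7 stages with collection method as covariate. TMM factors of the P15 batches were 0.772 to 0.994. DESeq2 1.42.0 and limma 3.58.1 gave alternatives, in R 4.3.3. Variation, correlations, permutation tests and figures used Python 3.11.15, SciPy 1.17.1 and matplotlib 3.10.9. Spike-ins with a mean of 10 reads or more gave the curve, a constant plus a term inverse to the mean. The scripts were tested on simulated data. Depth was 760481 to 1502596 reads per cell, so 1 read is about 1 CPM, and shares carry exact Clopper-Pearson 95% intervals for counting error only.

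Named genes were, for each comparison, up to 5 largest rises and falls among called genes at 20 CPM or more whose batches did not overlap, and up to 2 called members of each of 14 lists. Within P15 they were the 25 highest levels, the 15 most and 10 least variable genes, and 10 genes read in only part of the cells. There were also 5 genes on each side of the FACS batch. Predicted, ribosomal protein and mitochondrial genes were left out of these. Sequences came from the RefSeq promoter table, in which Ins2 was not found. Some members of the lists are not reported here by name. Gene coordinates and overlaps came from GENCODE vM21.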

Additional observations from a re-analysis of the deposited data

Results flagged for a closer look

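In groups of 5 batches, a value was singled out when its gap to the nearest batch exceeded 0.71 of the group's range (Dixon's 95% critical value). Only the P60 group was tested, and the values included genes named in its comparison with P15. Of 30 values tested 7 met this. The rate of about 1 in 20 by chance holds for independent, normally distributed values. These values are skewed and share batches, so that rate is no reference for them. P60 batch 3 held 6 of them, as TMM-scaled CPM: Gcg at 217.6 (nearest batch 1.42), Ppy at 19.6 (nearest 1.18), Pyy at 20.7 (nearest 5.07), Mki67 at 7.44 (nearest 1.52), Cenpe at 1.10 (nearest 0.184) and Nrep at 63.8 (nearest 28.4). Each was the highest of the 5 batches. Of its 29 cells, 1 held 4213 CPM of Gcg before TMM scaling, and 1 was the only P60 cell counted as cycling, with 35 cell cycle genes. The part of single cells in these 6 values was not tested. In P60 batch 2, Ins1 was the lowest at 155580 (nearest 183730). The P15 comparisons of Nrep and Cenpe kept their call without P60 batch 3.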

How the results depend on the processing

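The count of called genes depended on the method, and the cause was not tested. Against P9 (0 higher, 0 lower), 4 and 15 genes were called with no low-count filter, 23 and 53 with DESeq2, and 1 and 2 with equal weight per cell, and 1 lower without collection method and 3 lower with α batches in the fit. Against P18 (1 and 0), the numbers were 26 and 3 with no filter, 97 and 54 with DESeq2, 0 and 1 with α batches, 472 and 47 on hand-picked batches (1 P18 batch of 5 cells, with a median of all genes of 0.31 against 0.04), and 0 higher with equal weight. Against P60 (36 and 13), they were 115 and 38 with no filter, 183 and 148 with DESeq2, 16 and 7 with α batches, 0 and 0 on hand-picked batches, and 12 and 23 with equal weight. DESeq2 kept all 36 and 13, and no filter kept 29 and 13.

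Leaving out 1 batch gave 0 to 2 higher and 0 to 0 lower against P9, 0 to 2 and 0 to 1 against P18, and 8 to 73 and 5 to 16 against P60. It gave 1253 to 1481 genes above the spike-in curve in every batch kept (main 1028). That count can only stay the same or rise when fewer batches are required, so it does not measure stability. Differences in similarity were -0.0155 to 0.0177 (P9), 0.00976 to 0.0429 (P18) and -0.0144 to 0.0187 (P60). With all genes similarity differed by -0.00226 (P9) and -0.0128 (P60). Genes in all cells were 656 at 10 reads or more, against 1118.

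Of alternative values for the named P60 calls, 156 of 238 stayed called, 82 did not and 0 reversed. Uncalled differences near 0 changed sign. Ucn3 against P18 (-0.03) was 0.29 hand-picked, 0.085 with equal weight and -0.29 to 0.17 with 1 batch left out (above 0 without P15 batch 2, P15 batch 3 or P18 batch 2). Ins2 against P18 (-0.12) was 0.071 with α batches, 0.15 hand-picked and -0.23 to 0.093 with 1 batch left out, and against P60 (-0.17) it was 0.034 hand-picked and -0.29 to 0.022 with 1 batch left out (both above 0 only without P15 batch 3). Ucn3 against P60 (0.01) was -0.028 without collection method, -0.0022 with α batches and -0.27 to 0.18 with 1 batch left out (below 0 without P15 batch 1, P60 batch 4 or P60 batch 5).

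Batch numbers shared by stages did not pair the batches (correlations of same-numbered deviations -0.031 to 0.057). With the batch number as a replicate block, 0 genes were higher against P18 and 15 higher and 5 lower against P60, Ucn3 differed by 0.012 against P18 and by -0.014 against P60, and 13 and 4 of the P60 calls were shared. Depth limits genes near 1 CPM, where 1 read decides detection.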

Other observations

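Bulk libraries of β cells at P15, 2 of them with 16855092 and 18187091 reads, were outside the comparisons. They held 5592 and 14200 CPM of Gcg, 1698 and 2741 of Sst and 571 and 1791 of Ppy, against a highest single cell of 102 CPM of Gcg and 37.7 of Sst. Mafa stood at 50.2 and 38.2 CPM, against 2.42 CPM at most in a single cell. Insulin took less of the reads, with Ins2 at 100461 and 98769 CPM. Mki67 stood at 167 and 14.7 CPM and Fos at 382 and 2452 CPM, so the libraries differed in both. Nnat, at 201 and 217 CPM, was near the single-cell batch means of 173, 260 and 107 CPM. In bulk, fewer cells of a type and less RNA per cell cannot be told apart.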
